A study of Mus musculus with 14 samples.

Results

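The 10 genes described here encode transcription factors and coactivators that drive or oppose the contractile state of smooth muscle: Myocd, Srf, Mef2a, Mef2c, Mef2d, Klf4, Klf5, Elk1, Gata6 and Tead1. They were taken from a list of named factors by their known role, with no threshold on a measured value, and they are 10 of the 40481 genes in the bulk table. Earlier results of these data were known when they were chosen. They were read in the muscularis, the outer muscle layers of the gut with the nerves between them, of C57BL/6 mice. All 10 had enough counts to be tested.

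In smooth muscle, SRF is a DNA-binding protein that sits on CArG boxes in the promoters of contractile genes and also in those of immediate early genes. Which of these it drives depends on its partner: myocardin switches on the contractile programme, and ternary complex factors such as ELK1 compete for the same surface of SRF and are tied to growth signals. MEF2 proteins add to the muscle programme, KLF4 and KLF5 are known from blood vessels as factors of dedifferentiated or growing muscle cells, and Klf4, Klf5 and Elk1 are reported targets of the microRNAs miR-143 and miR-145, whose locus hosts the long non-coding RNA Carmn.

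The libraries carry the genotype labels "Carmn iKO", called KO here, or "WT mTmG", called WT, where mTmG is a fluorescent reporter allele. The design text speaks of Carmn KO and control mice; the sources used here do not say how or when Carmn was removed, which part of the gene was lost, which Cre acted, how old the mice were or whether they were treated. Bulk RNA-seq had 4 groups of 3 libraries, KO and WT in colon and in jejunum, each named by its tag (m1, t1, t4, t6 or t7), and colon nuclei had 1 library per genotype. No source says whether the 3 libraries of a group came from separate mice, so p-values measure the spread between these libraries only.

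The bulk libraries held 24254905 to 44315104 counts. KO colon t4 stood apart from the other libraries on the first principal component (-114.2, against -62.9 to 83.6) and KO jejunum m1 on the second (-109.7, against -40.4 to 65.5). Carmn itself went against the label in bulk: its level was 304 to 718 normalised counts per 1000000 counts (CPM) in the libraries labelled KO of colon and 171 to 351 CPM in WT colon, and 817 to 996 CPM against 206 to 326 CPM in jejunum. The groups overlapped in colon and not in jejunum. The precursor genes Mir143 and Mir145a, read here only as bulk RNA fragments and not as mature microRNAs, were lower in every KO library: Mir143 was at 1.46 to 3.29 CPM in KO and 7.42 to 15.2 CPM in WT colon, and at 0.355 to 1.86 CPM against 3.94 to 10.9 CPM in jejunum. In the nuclei Carmn was lower in KO, at 625 UMIs per 1000000 UMIs of smooth muscle-like nuclei (CPM, used for nuclei in this sense) against 1675 CPM in WT. Every direction below is therefore that of libraries labelled KO against libraries labelled WT. All 10 smooth muscle markers were present in each bulk library, together with markers of other cell types: the summed level of 8 epithelial markers was 92.9 CPM in WT colon t7 and 1115 to 3620 CPM in the other colon libraries, with no epithelial marker at 0, and that of 8 fibroblast markers was 9162 CPM in KO colon t4 and 1998 to 4700 CPM in the other colon libraries. In bulk RNA, fewer cells of a type and less RNA per cell cannot be told apart.

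None of the 10 factors passed the threshold, a Benjamini-Hochberg adjusted p of 0.05 over 20886 genes in edgeR's quasi-likelihood test. This held in KO against WT in colon, in KO against WT in jejunum, in the difference between these changes and in WT colon against WT jejunum. The background was low as well: 0.388% of all genes were called in colon, 0.215% in jejunum, 0% in the difference and 1.56% between the WT tissues. For the difference, 869 genes had an unadjusted p under 0.05 and DESeq2 called 38. At an unadjusted p under 0.05 there were 3 factors in colon (Srf, Mef2d, Mef2c), 2 in jejunum (Srf, Myocd), 1 in the difference (Mef2d) and 1 between the WT tissues (Elk1). Over all genes that share was 14.5% in colon, 13.2% in jejunum, 4.16% in the difference and 13.1% between the WT tissues, so the counts of 1 to 3 in 10 are near the background.

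**Figure D1:**
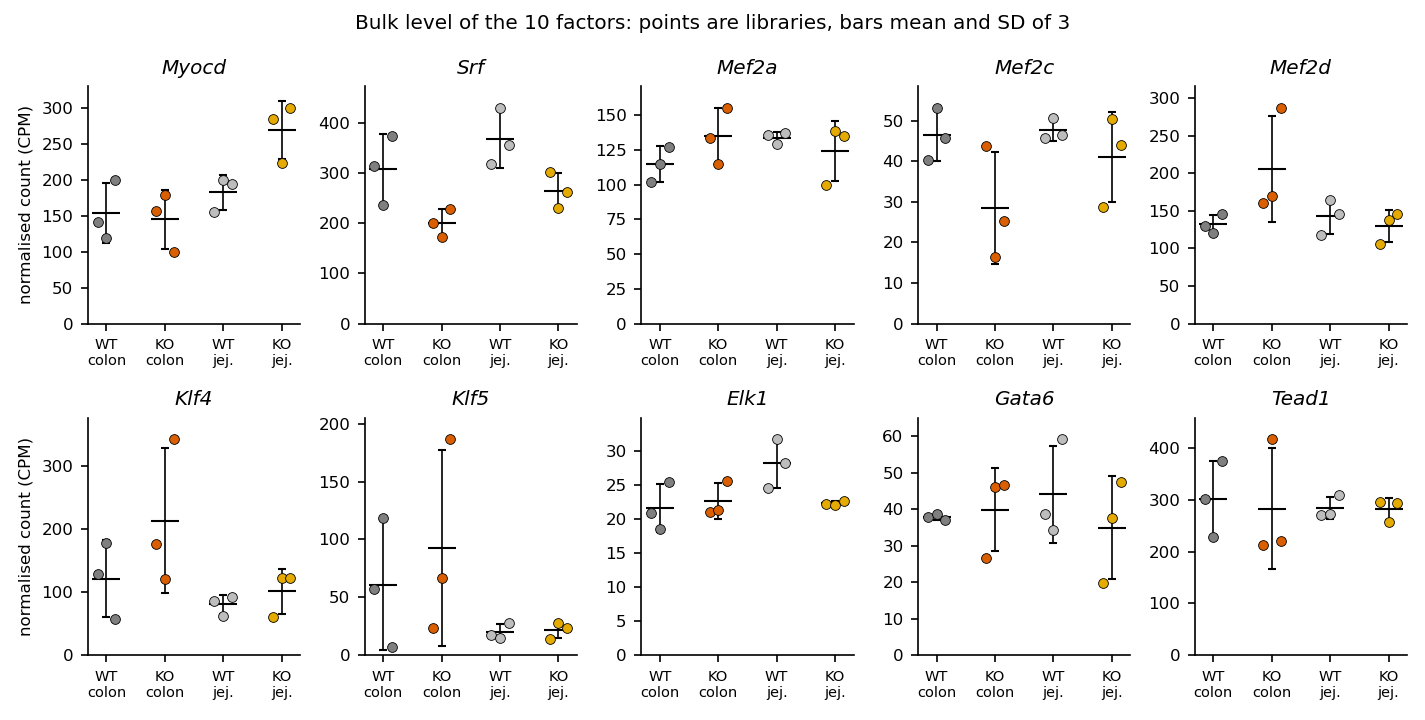
Normalised count (CPM, vertical axis) of each of the 10 factors in the 12 bulk libraries; points are libraries, and bars are the mean and SD of the 3 libraries of a group (WT in greys, KO in orange and yellow). Srf lies lower in all KO than in all WT libraries of each tissue, Myocd lies higher in KO jejunum, and Klf4 and Klf5 are spread widely within each colon group.

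Srf, the DNA-binding partner (chr17:46548329-46556175, minus strand, GRCm38), was the factor with the highest level per kilobase of exon, at 106 ± 24.0 CPM per kb in WT colon (SD, n = 3). Its level was 314, 235 and 374 CPM in WT colon (t1, t6, t7) and 201, 172 and 228 CPM in KO colon (m1, t4, t6). The KO values lay below all WT values, with a log2 fold change of -0.62 ± 0.21 (SE) and an edgeR adjusted p of 0.219. In jejunum Srf was at 318, 430.5 and 356 CPM in WT (t1, t6, t7) and at 302, 231 and 263 CPM in KO (m1, t1, t4), again without overlap. The log2 fold change there was -0.47 ± 0.21, with an edgeR adjusted p of 0.371. The changes in the 2 tissues differed by -0.15 ± 0.30 on the log2 scale (adjusted p = 0.963, edgeR). Values did not overlap between KO and WT for 19.2% of all genes in colon and 22.2% in jejunum, so 2 of 10 factors in colon (Srf and Mef2d) and 3 of 10 in jejunum (Srf, Myocd and Elk1) is near that background.

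The promoter of Srf is shown because SRF is reported to act on its own gene, and because it is the only member promoter with CArG boxes among the windows at hand. RefSeq promoter windows (250 bases before to 50 after the annotated start) were found for 6 of the 10 factors (Srf, Klf4, Mef2a, Mef2c, Mef2d and Elk1; 8 windows). The Srf window, chr17:46556113-46556412 on the minus strand of GRCm38.p6, reads as follows, with an ETS-type motif (CCGGAAG) and both CArG boxes in capitals.
Srf promoter: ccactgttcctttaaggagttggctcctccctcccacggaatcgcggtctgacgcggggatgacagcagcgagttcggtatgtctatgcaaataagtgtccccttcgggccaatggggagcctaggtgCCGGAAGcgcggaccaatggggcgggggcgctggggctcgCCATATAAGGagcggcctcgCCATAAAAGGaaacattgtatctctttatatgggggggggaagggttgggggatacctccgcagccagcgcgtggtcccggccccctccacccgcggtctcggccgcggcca
The CArG boxes begin 82 and 62 bases before the annotated start and the ETS-type motif 122 bases before it. Both strands of all windows were searched, and none of these 3 matches overlaps another. A CArG box was in 1.63% of the 32851 RefSeq windows of the genome and CCGGAAG in 8.86%. Among genes known to be driven by SRF, a CArG box was found in 2 of 14 windows of the contractile targets (Myl9 and Vcl) and in 4 of 11 windows of the immediate early genes (all of Egr2). Some of these Egr2 windows overlap and hold the same box, chr10:67537787-67537816, so they are not separate finds. In the separate list of cofactors a CArG box was in 2 of 22 windows (both of Fhl2). No match says only that the letters are not in these windows. The boxes are given below with 10 bases on either side, to set the boxes of Srf beside those of contractile and immediate early genes, with the box in capitals.
Srf, chr17:46556225-46556254, minus strand: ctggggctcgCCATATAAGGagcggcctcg
Srf, chr17:46556205-46556234, minus strand: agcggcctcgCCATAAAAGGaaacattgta
Vcl, chr14:20929161-20929190, plus strand: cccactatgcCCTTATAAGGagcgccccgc
Myl9, chr2:156775293-156775322, plus strand: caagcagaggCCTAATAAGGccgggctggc
Egr2, chr10:67537787-67537816, plus strand: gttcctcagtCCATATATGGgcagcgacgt
Egr2, chr10:67537484-67537513, plus strand: cggatcttctCCTTTTTTGGaaagtctcgg
A match is a description of letters and not a measured binding site. The colon nuclei libraries also held counts of accessible chromatin regions, called separately in each library. In the WT library a region of 1049 bases, chr17:46555859-46556907, covered the Srf start and both boxes, with 243 counts over the kept WT nuclei, 60 of them in smooth muscle-like nuclei. No region was called over that start in the KO library, which had 26493 called regions against 35003 in WT. A second region was called in both libraries, 924 bases from the nearest annotated Srf start with 194 counts in WT and 893 bases from it with 142 counts in KO.

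Myocd, the muscle-restricted coactivator of SRF (chr11:65176561-65269989, minus strand), was at 141, 119 and 200.1 CPM in WT colon (t1, t6, t7) and at 157, 179 and 99.2 CPM in KO colon (m1, t4, t6). These groups overlapped, with the lowest value in KO t6 and the highest in WT t7 (log2 fold change -0.08 ± 0.25, edgeR adjusted p = 0.926). In jejunum it was at 155, 199.7 and 194 CPM in WT and at 285, 224 and 301 CPM in KO, so every KO library lay above every WT library. The log2 fold change was 0.56 ± 0.25, with an edgeR adjusted p of 0.375. The difference between the tissues' changes was -0.64 ± 0.36 (adjusted p = 0.941, edgeR). In jejunum Myocd and Srf, which act as partners, had estimates of opposite sign.

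Of the MEF2 factors, which bind A/T-rich elements in muscle promoters, Mef2d (chr3:88142372-88172086, plus strand) was at 130, 121 and 146 CPM in WT colon and at 160.4, 169.8 and 288 CPM in KO colon. The groups did not overlap, and KO t6 was far above the rest. The log2 fold change was 0.64 ± 0.24 (edgeR adjusted p = 0.249), and it was 0.35 without KO t6. In jejunum Mef2d was at 118 to 165 CPM in WT and 105 to 146 CPM in KO (log2 fold change -0.14 ± 0.24, edgeR adjusted p = 0.851). The difference between the tissues' changes, 0.78 ± 0.34, had the smallest unadjusted p of the 10 factors (0.0414), with an edgeR adjusted p of 0.941. Its counts include up to 531 exon bases shared with 1700113A16Rik on the other strand, so they are uncertain in part.

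Mef2c (chr13:83504034-83667080, plus strand) had the lowest level per kilobase of exon, 2.96 ± 0.41 CPM per kb in WT colon (SD, n = 3). It was at 40.3, 53.2 and 45.8 CPM in WT colon and at 43.7, 16.5 and 25.2 CPM in KO colon. KO m1 lay within the WT values, and KO t4, which stood apart from the other libraries, was the lowest. The log2 fold change was -0.71 ± 0.31 (edgeR adjusted p = 0.328) and -0.43 without KO t4. In jejunum it was at 45.7 to 50.7 CPM in WT and 28.8 to 50.5 CPM in KO, with KO m1 the lowest (log2 fold change -0.21 ± 0.31, edgeR adjusted p = 0.812). Mef2a (chr7:67231163-67372858, minus strand), the most widely expressed of the family in these nuclei, was at 102 to 127 CPM in WT colon and 115 to 155 CPM in KO colon (log2 fold change 0.23 ± 0.17, edgeR adjusted p = 0.590), and at 129 to 137 CPM in WT jejunum and 99.5 to 139 CPM in KO jejunum. It shares 302 exon bases with Lysmd4 on the other strand.

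Klf4 (chr4:55527143-55532466, minus strand), known as a repressor of the contractile programme in vascular muscle, was at 129, 178 and 56.5 CPM in WT colon (t1, t6, t7) and at 177, 121 and 343 CPM in KO colon (m1, t4, t6). The groups overlapped, and the ends of the range were WT t7 and KO t6. The log2 fold change was 0.82 ± 0.46 (edgeR adjusted p = 0.456), and 0.32 without KO t6 and 0.50 without WT t7. Klf5 (chr14:99298691-99315036, plus strand), a growth-linked factor of the same family and a crypt factor of gut epithelium, was at 57.1, 119 and 6.75 CPM in WT colon and at 23.3, 66.8 and 187 CPM in KO colon. The same libraries were the ends of its range, and its log2 fold change of 0.60 ± 0.87 (edgeR adjusted p = 0.816) became -0.40 without KO t6.

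Beside these values the epithelial gene Epcam was at 153, 304 and 5.11 CPM in WT colon and at 68.9, 78.2 and 167 CPM in KO colon. In each colon group the library with the most Epcam thus had the most Klf4 and Klf5, and WT t7 had the least of all 3 genes. Between the groups, WT t6 had more Epcam than KO t6 but less Klf4 and Klf5. The summed level of the 8 epithelial markers was also highest in KO t6 in KO colon (2521 CPM, against 1115 in m1 and 1223 in t4), but its member Krt20 was highest in m1 (112 CPM, against 22.03 in t4 and 41.7 in t6). The part of epithelial RNA in the colon values of Klf4 and Klf5 was not tested. In jejunum, with Epcam at 28.9 to 87.8 CPM, Klf4 was at 62.8 to 92.6 CPM in WT and 60.3 to 123 CPM in KO (log2 fold change 0.34 ± 0.46, edgeR adjusted p = 0.797). Klf5 was at 14.5 to 27.5 CPM in WT jejunum and 13.9 to 27.7 CPM in KO jejunum (log2 fold change 0.14 ± 0.87, edgeR adjusted p = 0.965). Both factors overlapped between genotypes in both tissues.

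**Figure D2:**
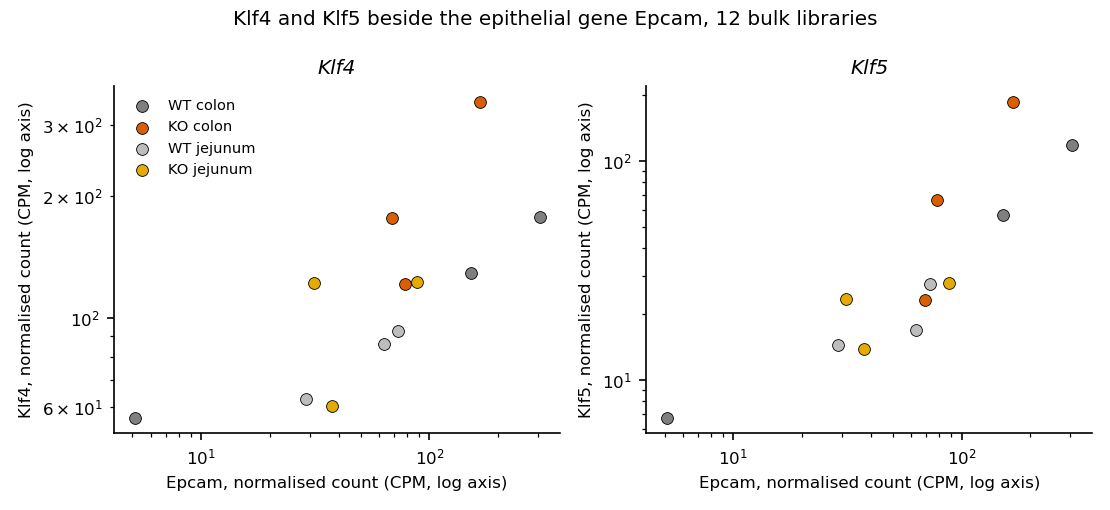
Klf4 (left) and Klf5 (right) against the epithelial gene Epcam in the 12 bulk libraries, all in CPM on log axes, with groups by colour. WT colon t7, with Epcam at 5.11 CPM, holds the lowest Klf4 and Klf5, and KO colon t6, with Epcam at 167 CPM, the highest. The highest Epcam, 304 CPM, is in WT colon t6, which has less Klf4 and Klf5 than KO colon t6.

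Elk1 (chrX:20933395-20950608, minus strand), the ternary complex factor that competes with myocardin for SRF and the third reported target of miR-143 and miR-145, varied little. It was at 20.9, 18.5 and 25.5 CPM in WT colon and at 20.9, 21.3 and 25.6 CPM in KO colon (log2 fold change 0.06 ± 0.17, edgeR adjusted p = 0.912). In jejunum it was at 24.6, 31.7 and 28.2 CPM in WT and at 22.2, 22.01 and 22.7 CPM in KO. The KO jejunum values were lower without overlap, with a log2 fold change of -0.34 ± 0.17 and an edgeR adjusted p of 0.419. None of the 3 reported targets of miR-143 and miR-145 was past the threshold in either tissue. The precursor genes had log2 fold changes of -2.04 ± 0.58 (Mir143) and -2.59 ± 0.66 (Mir145a) in colon and -2.53 ± 0.60 and -2.74 ± 0.67 in jejunum (edgeR adjusted p = 0.152, 0.124, 0.114 and 0.125), also short of the threshold; Elk1 shares 76 exon bases with Uxt on its own strand.

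Gata6 (chr18:11052064-11085635, plus strand), a zinc-finger factor of visceral muscle, mesothelium and gut epithelium, was at 37.9, 38.6 and 37.1 CPM in WT colon and at 26.7, 46.1 and 46.7 CPM in KO colon, on both sides of WT (log2 fold change 0.07 ± 0.32, edgeR adjusted p = 0.953). In jejunum it was at 34.3 to 59.2 CPM in WT and 19.7 to 47.6 CPM in KO (log2 fold change -0.33 ± 0.32, edgeR adjusted p = 0.693). It shares 93 exon bases with 1010001N08Rik on the other strand. Tead1 (chr7:112679318-112906807, plus strand), the DNA-binding partner of YAP and TAZ that binds MCAT elements of muscle genes, was at 302, 228 and 376 CPM in WT colon and at 212, 418 and 219.7 CPM in KO colon. The high KO value was that of t4, the library with the most fibroblast marker RNA; the part of fibroblast RNA in it was not tested. The log2 fold change was -0.09 ± 0.27 (edgeR adjusted p = 0.920). In jejunum Tead1 lay between 258 and 310 CPM in all 6 libraries (log2 fold change -0.01 ± 0.27, edgeR adjusted p = 0.994).

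**Figure D3:**
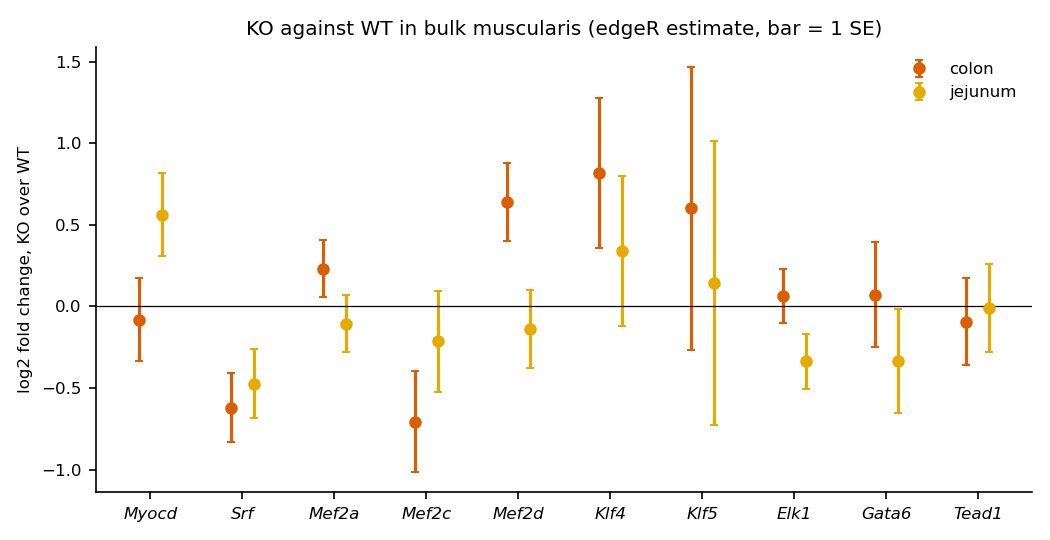
Log2 fold change of KO over WT (vertical axis) of the 10 factors in bulk colon and jejunum, with bars of 1 SE from edgeR. Srf lies below 0 in both tissues (-0.62 and -0.47), Myocd above 0 in jejunum only (0.56), and the bars of Klf5 are the widest; no factor passed the threshold.

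Between WT colon and WT jejunum 1 of 10 factors (Mef2a) did not overlap, against 22.9% of all genes. Mef2a was at 102 to 127 CPM in colon and 129 to 137 CPM in jejunum (log2 fold change -0.22 ± 0.17, edgeR adjusted p = 0.676). The estimate farthest from 0 was that of Klf5, 1.63 ± 0.89 in favour of colon (edgeR adjusted p = 0.487), where the epithelial gene Epcam also ranged from 5.11 to 304 CPM. Per kilobase of exon (the union of all annotated exons), the mean levels in WT colon ran from Srf (106 CPM per kb) to Klf4 (39.8 ± 20.1), Myocd (23.9 ± 6.49), Tead1 (22.3 ± 5.48), Mef2d (22.1 ± 2.13), Klf5 (11.7 ± 10.8), Mef2a (7.81 ± 0.87), Gata6 (5.82 ± 0.12), Elk1 (4.02 ± 0.65) and Mef2c (2.96 ± 0.41; SD, n = 3 each). Klf4, Myocd, Tead1 and Mef2d could not be ranked within their SDs, and the range of 1 SD around Klf5 overlapped those of Klf4, Myocd, Tead1, Mef2d, Mef2a, Gata6, Elk1 and Mef2c.

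Across the 12 libraries, centred within each tissue, the members most alike in log2 CPM were Klf4 and Klf5 (Pearson r = 0.824), followed by Mef2a and Mef2d (0.757). Srf and Myocd had an r of -0.0716. The 2 genes most like each factor, out of 14763 compared over the same 12 libraries, were Atp10a and Wnk1 for Myocd (0.944 and 0.937), Rassf8 and Ppp1r16a for Srf (0.957 and 0.956), and Sart3 and Pias4 for Mef2d (0.985 and 0.970). They were Rsrp1 and Fip1l1 for Mef2a (0.9495 and 0.945), Ddit4l and Gm15787 for Mef2c (0.968 and 0.943), Cbs and Aspg for Klf4 (0.923 and 0.902), and Hook2 and Fam83h for Klf5 (0.971 and 0.969). For the remaining factors they were Pip5k1c and Gna12 for Elk1 (0.922 and 0.915), Serinc5 and Nktr for Gata6 (0.929 and 0.915), and Adamts9 and Itgb8 for Tead1 (0.944 and 0.922). These are the highest of many values over libraries that share depth and tissue makeup, so they are descriptions.

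Among the genes that these factors are known to act on, the estimates ran mostly one way in colon. Of 16 contractile genes with reported SRF-myocardin control, all 16 had a lower estimate in KO colon (median log2 fold change -0.75, against 0.00 over all genes), 8 at an unadjusted p under 0.05 (14.5% of all genes) and none past the threshold. The smallest p-values were those of Mylk, the myosin light chain kinase (-1.23 ± 0.30, edgeR adjusted p = 0.116), and Myl9, a myosin regulatory light chain (-1.16 ± 0.30, edgeR adjusted p = 0.124). In jejunum 9 of the 16 were higher and 7 lower (median 0.13, against 0.02 over all genes), with Mylk at -0.98 ± 0.30 (edgeR adjusted p = 0.198) and Cnn1, calponin, at 1.07 ± 0.39 (edgeR adjusted p = 0.278). The summed level of the 10 smooth muscle markers, 9 of which are among these 16 genes, was 34878 to 47530 CPM in KO colon and 51782 to 75568 CPM in WT colon; the share of muscle cells in it was not tested. Colon smooth muscle-like nuclei, with 1 library per genotype, did not show 1 direction for these 16 genes. The ratio of KO to WT lay above 1 with its whole counting interval for 6 of them: Des 1.40, Cnn1 1.31 (1.17 to 1.47), Cald1 1.30, Tagln 1.30, Actg2 1.09 (1.05 to 1.12) and Acta2 1.07. It lay below 1 for another 6, among them Mylk (0.657), Myl9 (0.689) and Myh11 (0.738). In the other programme of SRF, all 10 immediate early genes had a higher estimate in KO, in colon (median 1.70) and in jejunum (median 1.76), 6 and 9 of them at an unadjusted p under 0.05 (14.5% and 13.2% of all genes) and none past the threshold. Dusp1, a MAP kinase phosphatase, had 1.87 ± 0.35 in colon (edgeR adjusted p = 0.0516) and 1.36 ± 0.34 in jejunum (edgeR adjusted p = 0.137). Ccn1, a secreted matrix protein, had 2.69 ± 0.61 in colon (edgeR adjusted p = 0.107), and Fosb, an AP-1 subunit, 2.18 ± 0.38 in jejunum (edgeR adjusted p = 0.0527). In colon smooth muscle-like nuclei, with 1 library per genotype, 8 of these 10 genes were higher in KO and 2 lower. The whole counting interval lay above 1 for 3 of them and below 1 for 0. Fosb was at 0.665 CPM in KO and 0.875 in WT, from 1 and 2 UMIs.

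Of 12 tested relatives of the factors, 1 passed the threshold in colon and none in jejunum, against 0.388% and 0.215% of all genes. At an unadjusted p under 0.05 in edgeR there were 7 in colon and 3 in jejunum, against 14.5% and 13.2% of all genes. In each tissue 8 had a higher and 4 a lower estimate in KO. Klf2, a KLF factor best known from endothelium, rose in KO colon by 2.30 ± 0.40 on the log2 scale (edgeR adjusted p = 0.0404), a call that was lost under 9 of 19 alternatives. These were leaving out KO colon t6 (edgeR adjusted p = 0.117), WT colon t1 (0.154), t6 (0.175) or t7 (0.0676), KO jejunum t1 (0.0573), WT jejunum t1 (0.0768), t6 (0.071) or t7 (0.0684), and a fit of the colon libraries alone (0.15). The other relatives with the smallest p-values were Gata5 in colon (-1.14 ± 0.33, edgeR adjusted p = 0.154), and Elk4, another ternary complex factor, and Tead2 in jejunum (0.62 ± 0.14 and -0.84 ± 0.24, edgeR adjusted p = 0.113 and 0.183). None of 14 cofactors passed the threshold, with 2 at an unadjusted p under 0.05 in colon and 3 in jejunum. Hdac4 and Hdac7, class II deacetylases that restrain MEF2, had 0.56 ± 0.19 and 0.65 ± 0.24 in colon (edgeR adjusted p = 0.209 and 0.252). Csrp1, a LIM protein of muscle, and Mrtfa, a myocardin-related coactivator, had 1.02 ± 0.28 and 0.42 ± 0.18 in jejunum (edgeR adjusted p = 0.163 and 0.346). Of 14 tested factors of gut mesenchyme 1 passed it in each tissue, the same gene: Six5, a homeobox factor next to Dmpk, fell by 1.80 ± 0.24 on the log2 scale in colon (edgeR adjusted p = 0.0176) and by 1.95 ± 0.24 in jejunum (edgeR adjusted p = 0.0131). The colon call was lost under 3 of 19 alternatives, without KO colon t6 (edgeR adjusted p = 0.0773), without WT colon t1 (0.0889) and in a fit of the colon libraries alone (0.123). The jejunum call was lost under 4 of 19, without KO jejunum t4 (0.0693) or WT jejunum t1 (0.0555), t6 (0.0556) or t7 (0.0532). Foxf1 in colon (0.44 ± 0.27, edgeR adjusted p = 0.491) and Heyl in jejunum (0.60 ± 0.28, edgeR adjusted p = 0.392) came next. All these lists were drawn up with earlier results of these data known. The numbers of listed genes past the threshold are therefore descriptions and no test of the lists.

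The nuclei give the factors by cell type. After filtering, 2632 WT and 1592 KO colon nuclei remained, with a median of 1698 and 1984 UMIs; 11 barcodes occur in both libraries. They were clustered jointly without the 10 factors, and 5 of 23 clusters were called smooth muscle-like from a fixed list of 10 markers (875 WT and 426 KO nuclei, median 1903 and 2402 UMIs). The naming depended on the setting. At a clustering resolution of 0.5 the class held 620 WT and 164 KO nuclei. A cluster of 265 WT and 265 KO nuclei with all 10 markers raised stayed unnamed there. Nuclei led by Hs3st4, as cluster 16 is, were named interstitial cell of Cajal-like at resolution 2 and with doublets kept. The 5 smooth muscle-like clusters differed in weight between the libraries. Cluster 0 (led by Colec10, Nek10 and Grm8) held 45.6% of the WT and 5.40% of the KO nuclei of the class. Cluster 19 (led by Ptgs2, Flnc and Dnah5) held 9.37% and 31.2%, and cluster 1 20.6% and 30.3%. Cluster 12, with a median of 9827 UMIs, stayed unnamed. With 1 library per genotype there is no test, and the intervals given are exact and cover counting error only.

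**Figure D4:**
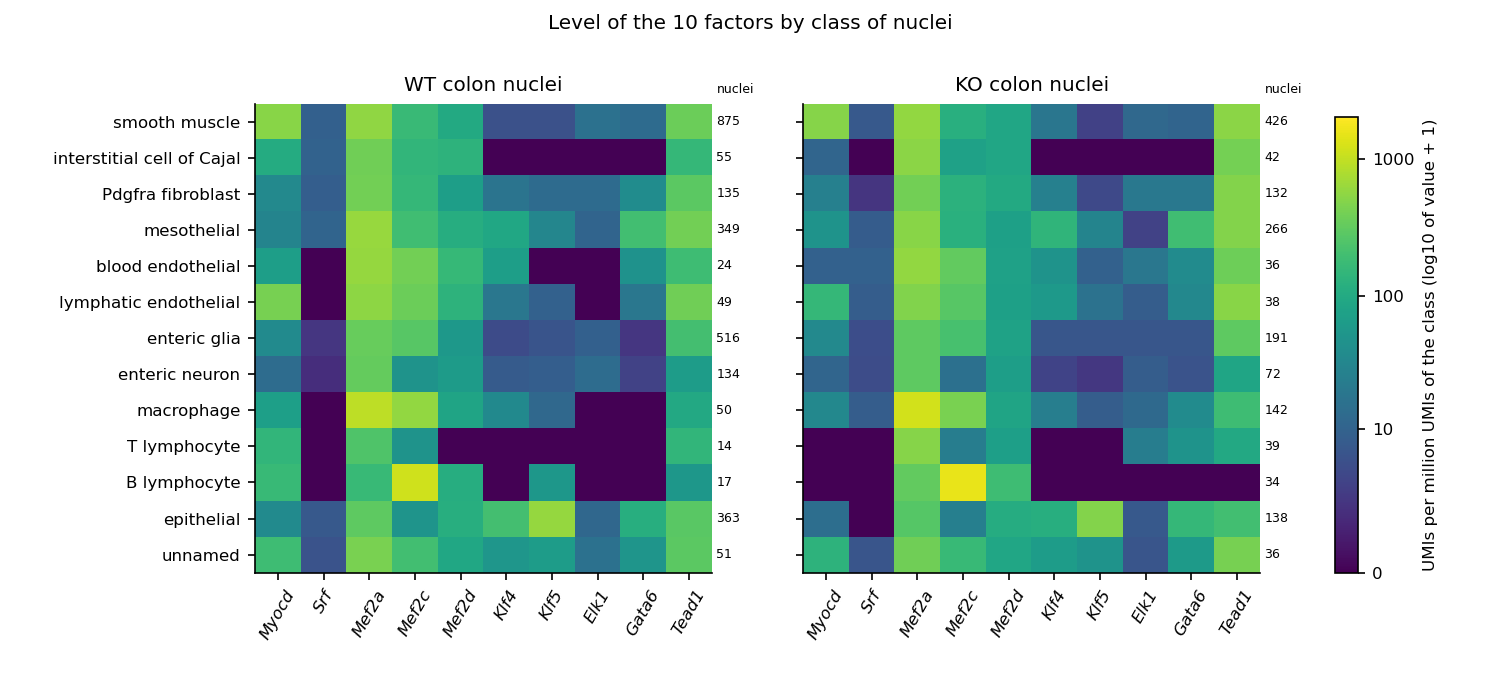
Level of each factor in CPM of a class of nuclei (colour, log10 of the value + 1), for WT (left) and KO (right) colon nuclei, with the number of nuclei beside each row. Myocd stands out in smooth muscle-like, Klf5 in epithelial-like, Gata6 in mesothelial-like and Mef2c in B lymphocyte-like nuclei.

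Myocd was highest in muscle. It had 1961 UMIs in smooth muscle-like nuclei, 517 CPM (495 to 541), and 53.3% of those nuclei had at least 1. Lymphatic endothelial-like nuclei followed with 281 CPM (216 to 360, from 63 UMIs), and enteric neuron-like nuclei were lowest with 12.6 (8.16 to 18.6). Per 100 UMIs of Myh11, the smooth muscle myosin, there were 5.37 Myocd UMIs in smooth muscle-like, 5.32 in fibroblast-like, 5.27 in glia-like and 5.77 in mesothelial-like nuclei, with both libraries pooled. Within a library the ratios lay further apart: 6.42 in smooth muscle-like, 9.91 in glia-like and 8.33 in fibroblast-like nuclei of KO, and 4.86, 4.39 and 3.45 in WT. Neuron-like (2.52), macrophage-like (3.32) and interstitial cell of Cajal-like nuclei (9.76) differed more from muscle in the pooled values. The part of free RNA was not tested. The ratio was 7.97 in lymphatic endothelial-like nuclei, 14.4 in the WT and 3.93 in the KO library. A WT region over the Myocd start (chr11:65269636-65270494) had 42 of its 63 counts (66.7%) in smooth muscle-like nuclei. These nuclei held 28.2% of all WT region counts. No region was called at a Myocd start in the KO library, which had fewer called regions. Regions over a start were called only in WT for Srf, Klf4 (230 counts) and Gata6 as well. Only in KO were they called for Mef2c and for a second start of Mef2d.

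Srf was scarce in nuclei, at 8.44 CPM (5.77 to 11.9) in smooth muscle-like and 9.05 (4.82 to 15.5) in mesothelial-like nuclei, with 86 UMIs over all kept nuclei, so no class could be told from the next. Elk1 was as thin, with 165 UMIs in all and 14.5 CPM (10.9 to 18.9) in smooth muscle-like nuclei. Mef2a was found in every class, from 276 CPM (164 to 436) in B lymphocyte-like to 1109 (997 to 1230.2) in macrophage-like nuclei, and stood at 573 (549 to 598) in smooth muscle-like nuclei. Mef2c, known as a factor of B cells, was highest in B lymphocyte-like nuclei (1442 CPM, from 94 UMIs), followed by macrophage-like (472) and blood endothelial-like (340.2) nuclei, and was at 152 (140 to 165) in smooth muscle-like nuclei. Mef2d ranged from 48.5 CPM in T lymphocyte-like (3 UMIs) to 169 in B lymphocyte-like nuclei (11 UMIs), with 95.5 (85.9 to 106) in smooth muscle-like, 63.4 in glia-like and 116 in epithelial-like nuclei.

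Klf5 was highest in epithelial-like nuclei, and Klf4 in epithelial-like or mesothelial-like nuclei depending on the library. Klf5 had 563 CPM (516 to 613) in epithelial-like nuclei and 4.75 (2.81 to 7.51, from 18 UMIs) in smooth muscle-like nuclei. At least 1 UMI was in 47.5% and 1.15% of the nuclei. Enteric glia-like nuclei, with a median of 1925 (WT) and 2300.0 (KO) UMIs, had 1.56%. Of the 18 UMIs, 8 lay in cluster 16 of WT, at 18.95 CPM (8.18 to 37.3) in 3.1% of its nuclei. That cluster had 0 in KO, and WT glia-like nuclei were at 6.13 CPM. The part of free RNA in these values was not tested. Klf4 had 179 CPM (153 to 207) in epithelial-like, 122 (105 to 142) in mesothelial-like and 10.8 (7.76 to 14.7) in smooth muscle-like nuclei, with 5.24 (2.51 to 9.64) in glia-like nuclei. By library, epithelial-like and mesothelial-like nuclei had 204 and 90.5 CPM of Klf4 in WT, and 117 and 143 in KO. Gata6 was at 195 (173 to 219) in mesothelial-like, 127 (105 to 152) in epithelial-like and 12.1 (8.89 to 16.2) in smooth muscle-like nuclei. Within muscle Gata6 was uneven: cluster 1 (led by Tex15, Aspn and Abcc9, the last a mural cell marker) had 58.3 CPM in WT and 48.5 in KO, while the largest WT cluster, cluster 0, had 2.73 from 3 UMIs. Tead1 was broad, at 451 in lymphatic endothelial-like, 446 in mesothelial-like, 431 (410 to 453) in smooth muscle-like and 426 in fibroblast-like nuclei, and lowest in neuron-like (74.1) and B lymphocyte-like nuclei (15.3, from 1 UMI).

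**Figure D5:**
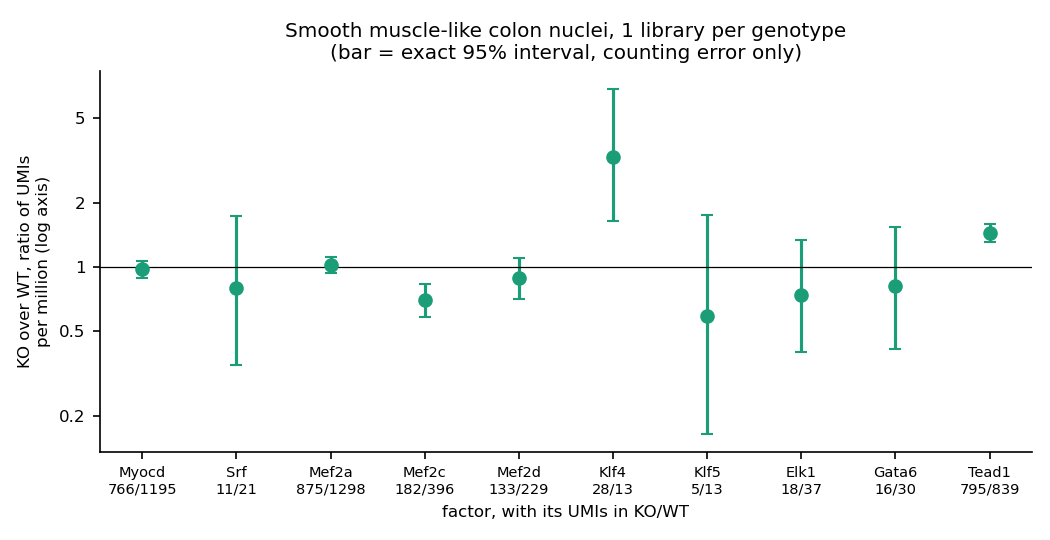
Ratio of KO to WT level (CPM, log axis) of the 10 factors in smooth muscle-like colon nuclei, with exact 95% intervals for counting error only and the UMIs of KO and WT under each name. Myocd and Mef2a lie at 1, Tead1 and Klf4 above and Mef2c below.

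In smooth muscle-like nuclei, Myocd was at 509 CPM in KO and 523 in WT, a ratio of 0.974 (0.888 to 1.07). Mef2a was at 582 and 568, a ratio of 1.02 (0.939 to 1.12). Tead1 was at 528 in KO and 367 in WT (ratio 1.44, 1.31 to 1.59). It was higher in KO in 9 of 12 named classes and over all nuclei (ratio 1.41), and lower in epithelial-like nuclei (ratio 0.692, 0.502 to 0.940). Mef2c was at 121 in KO and 173 in WT (ratio 0.698, 0.583 to 0.834). It was lower in KO in 11 of 12 named classes, 4 of them with the whole interval below 1. Myocd was likewise lower in KO in 11 of 12 named classes, 3 of them with the whole interval below 1. These 3 were not muscle and rested on few UMIs in KO and WT. There were 0 and 3 in B lymphocyte-like, 1 and 11 in interstitial cell of Cajal-like and 19 and 44 in lymphatic endothelial-like nuclei. Over all nuclei the ratio of Myocd was 0.808 (0.746 to 0.874). Smooth muscle-like nuclei were 26.8% of the KO and 33.2% of the WT nuclei, and the part of that share was not tested. Klf4 was at 18.6 in KO and 5.69 in WT, a ratio of 3.27 (1.64 to 6.88) from 28 and 13 UMIs. That ratio was 1.95 with each nucleus thinned to 1000 UMIs and 5.04 among nuclei with at least 1000 UMIs. Its ratio was 0.573 (0.378 to 0.847) in epithelial-like and 1.58 (1.13 to 2.24) in mesothelial-like nuclei. For Srf (11 and 21 UMIs), Klf5 (5 and 13), Elk1 (18 and 37), Gata6 (16 and 30) and Mef2d (133 and 229) the intervals of the ratio held 1. Of the 5 factors with at least 100 UMIs in these nuclei none was past 1.5-fold, against 20.4% of all such genes.

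Because the clusters of the class differ in weight between the libraries, the same values were read by cluster. Tead1 was at 607 CPM in KO and 460 in WT in cluster 2, at 511 and 345 in cluster 19 and at 545 and 327 in cluster 16, but at 417 and 437 in cluster 1 and at 347 and 356 in cluster 0. Mef2c was at 97.7 and 166 in cluster 2, 114 and 159 in cluster 19 and 149.7 and 213 in cluster 16, and at 155 and 158 in cluster 1; in cluster 0, with 12 KO UMIs, it was at 181 and 167. Myocd was at 507 and 445 in cluster 2, 430 and 550 in cluster 19, 611 and 469 in cluster 16, 587 and 541 in cluster 1 and 664 and 546 in cluster 0, so it was higher in KO in 4 clusters and lower in cluster 19. Klf4 was higher in KO in 4 of the 5 clusters, on 1 to 10 UMIs per cluster and library.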

How the data were processed

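Bulk RNA-seq counts and nuclear count matrices of mouse gut muscularis were used as the authors deposited them. Per the submitters' processing notes, STAR 2.0.4b, Subread, featureCounts 1.4.5, edgeR and Cell Ranger were used with GRCm38. The matrix headers name cellranger-arc. No source used here says whether counting used strand. The deposited bulk table holds raw counts for 40481 genes (276 repeated entries dropped). They were tested with edgeR 4.0.16 (TMM, filterByExpr, 1 mean per group over 12 libraries, robust quasi-likelihood), also run on simulated data; CPM use TMM-scaled sizes. Alternatives were other scalings, filters, DESeq2 1.42.0, limma 3.58.1 voom, the compared groups alone, a replicate block and leaving out each library. Gene values of nuclei, all even, were divided by 2. Nuclei with at least 500 UMIs, 300 genes and at most 5% mitochondrial UMIs were kept. Scrublet removed 7 WT (0.265%) and 2 KO (0.125%) doublets, so it can be taken not to have worked. Clusters (scanpy 1.11.5, Leiden resolution 1.0) were named from fixed markers.

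All 10 factors are named, with Carmn, the 2 microRNA precursors, the genes past the threshold and the 2 smallest p-values of each related list per tissue, and the 2 most alike genes of each factor. The factors and lists were chosen with earlier results of these data known. PCR duplicates of bulk reads carry no identifiers, so depth covers counting error only.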

Additional observations from a re-analysis of the deposited data

Results flagged for a closer look

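In a cofactor and a pair of target genes of SRF, every KO library lay on one side of every WT library in colon and on the other side in jejunum. These genes were picked for this pattern out of all the listed genes, and the share of all genes with it was not counted. Non-overlap in a single tissue, in either direction, held for 19.2% of all genes in colon and 22.2% in jejunum. The log2 change in colon minus that in jejunum was -1.41 for Csrp1 (-0.39 in colon, 1.02 in jejunum), -2.17 for Actg2, the enteric smooth muscle actin (-1.02 and 1.15), and -1.88 for Cnn1 (-0.81 and 1.07). The edgeR test of that difference had unadjusted p-values of 0.00407, 0.00616 and 0.00568, and an adjusted p of 0.941 for each. KO jejunum m1, which stood apart from the other libraries, had the highest jejunum value of all 3 genes, at 6144 CPM for Csrp1, 12956 CPM for Actg2 and 6632 CPM for Cnn1; its part in the result was not tested. In colon smooth muscle-like nuclei, with 1 library per genotype, Actg2 and Cnn1 were higher in KO, with ratios of 1.09 (1.05 to 1.12) and 1.31 (1.17 to 1.47) and intervals for counting error only.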

How the results depend on the processing

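None of the 10 factors passed the threshold under any alternative run (scaling, filter, DESeq2, limma voom, the compared groups alone, a replicate block, each library left out), with a smallest adjusted p of 0.0776 for Mef2c in colon. The number of genes called moved widely. DESeq2 called 960 genes in colon, 805 in jejunum, 38 in the difference between tissues and 1156 between WT tissues. A fit of the compared groups alone called 0 in colon, 21 in jejunum and 904 between WT tissues. In jejunum total counts without scaling gave 26 and limma voom 87. Without 1 library the counts were 7 to 180 in colon, 2 to 172 in jejunum, 0 to 1 in the difference and 79 to 557 between WT tissues; in colon the lowest came without KO colon t6 and the highest without KO colon m1, in jejunum without KO jejunum t4 and KO colon t4, and between WT tissues without WT colon t1 and KO jejunum m1. The causes were not tested.

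Estimates near 0 changed sign when 1 library was left out. In colon the log2 fold changes were -0.48 to 0.12 for Tead1, -0.043 to 0.29 for Gata6, -0.26 to 0.18 for Myocd, -0.40 to 1.55 for Klf5 and -0.014 to 0.22 for Elk1. In jejunum they were -0.20 to 0.0050 for Mef2a, -0.084 to 0.45 for Klf5 and -0.070 to 0.044 for Tead1. The difference between tissues was -0.47 to 0.15 for Tead1, -0.011 to 0.89 for Klf4, -0.54 to 1.42 for Klf5, -0.27 to 0.052 for Srf and -0.024 to 0.42 for Six5. Between WT tissues Tead1 was at -0.16 to 0.20, and Mef2c was at 0.0032 with total counts. Of 40 combinations of factor and contrast, 26 kept their sign under every alternative. Among them were Srf in each tissue, Mef2d in colon, and Myocd and Elk1 in jejunum. KO and WT values of these did not overlap, so leaving out 1 library could hardly turn their sign.

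Colon and jejunum libraries of a genotype with the same tag had correlated deviations of -0.163 to 0.1. Those with different tags had -0.39 to 0.348, so this cannot tell whether a shared tag means a shared mouse. With the tag as a replicate block, 29 genes were called between WT tissues and 0 in the difference. No paired analysis was possible for KO against WT within a tissue because at most 1 tag is shared. In the nuclei, alternative filters, clusterings and thinning to 1000 UMIs moved 9 of 50 ratios. A reversal was counted only where the main interval left out 1, for Klf4, Tead1 and Mef2c, and none of these reversed. Klf4 ran from 1.95 (thinned) to 5.04, Tead1 from 1.27 to 1.53 and Mef2c from 0.675 to 0.948. For the other factors a change of side was not counted. Fewer than 60 UMIs limit Srf, Klf4, Klf5, Elk1 and Gata6 in smooth muscle-like nuclei.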
